A study of Mus musculus with 30 samples.

Results

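The exocyst subunit genes Exoc1, Exoc2, Exoc3, Exoc4, Exoc5, Exoc6, Exoc6b, Exoc7 and Exoc8 were examined in total RNA of mouse cardiac myocytes. These 9 genes were taken by symbol from a table of 52550 genes, and 9 of them were among the 15587 genes with enough counts to be tested. Exoc2 had been selected on its low CPM in heterozygotes, so its genotype values are given as a description with no test. The question for the other 8 genes was whether they followed Exoc2 down or rose against it. Libraries came from wild-type mice and from Myh6-Cre:DspW/F mice (heterozygotes in this text), a model of desmoplakin haplo-insufficiency by the series title. The Myh6 promoter restricts Cre to cardiac myocytes, and the Dsp product desmoplakin joins the desmosome to intermediate filaments. Both genotypes were sampled at the age of 3 months and again at 6 months, where mice either had regular activity or had completed 3 months of endurance running on a treadmill. Each of these 6 groups has 5 libraries. The labels do not say whether wild-type mice carry Cre or whether replicates are separate animals, so p-values measure only the spread between libraries, which may be technical.

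The exocyst is a protein complex that tethers secretory and recycling vesicles to the plasma membrane before they fuse. Exoc1 to Exoc4 form one subcomplex and Exoc5 to Exoc8 another, with Exoc6 and Exoc6b as paralogs for a single position. The small GTPases RalA and RalB bind Exoc2 and Exoc8, vesicle-borne Rab GTPases bind Exoc6, and Exoc1 and Exoc7 hold the complex to phosphoinositides of the target membrane. In muscle and fat cells the complex is known for its part in bringing the glucose transporter GLUT4 to the cell surface.

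Exoc2 (ENSMUSG00000021357) lies on chromosome 13 of GRCm38, from 30813919 to 30974093 on the minus strand. The results turn on this gene, and its RefSeq entries give it 2 start sites, which a count over the whole gene does not separate. The 250 bases before each start (RefSeq, GRCm38.p6, minus strand, written 5′ to 3′) are shown here with CG pairs in capitals. The first lies at chr13:30974048-30974297 and the second, inside the gene, at chr13:30950299-30950548.
Exoc2 upstream start: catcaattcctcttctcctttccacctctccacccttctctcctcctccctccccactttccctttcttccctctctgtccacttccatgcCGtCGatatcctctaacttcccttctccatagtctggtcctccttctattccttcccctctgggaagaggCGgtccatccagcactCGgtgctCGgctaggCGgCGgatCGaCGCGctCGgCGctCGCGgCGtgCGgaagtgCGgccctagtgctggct
Exoc2 internal start: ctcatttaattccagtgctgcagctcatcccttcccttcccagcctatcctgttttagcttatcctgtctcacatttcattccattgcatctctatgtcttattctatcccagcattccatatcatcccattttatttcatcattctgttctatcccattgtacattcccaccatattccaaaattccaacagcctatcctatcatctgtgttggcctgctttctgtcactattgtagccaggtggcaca
The upstream window holds 17 CG pairs and the internal window 0. Of 32851 RefSeq start windows of the same length, 23.5% hold at least 17, and the median is 6. The 11 windows of the other 8 subunit genes hold from 8 in Exoc1 to 34 in Exoc8, so the internal Exoc2 start is the only one of the 13 windows without a CG pair.

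Total counts ran from 11.2 to 23.7, in units of 1000000, per library. The 8 cardiac myocyte markers (Myh6, Tnnt2, Tnni3, Actc1, Myl2, Ryr2, Pln and Ttn) summed to between 60054 and 101967 CPM (counts per 1000000 counts) in every library. Lymphocyte and neutrophil markers summed to at most 30.4 CPM, and the 8 macrophage markers to between 11.7 and 123.7 CPM. Pericyte and smooth muscle markers summed to 872 to 1658 CPM, endothelial markers to 214 to 1171 CPM and fibroblast markers to 88.8 to 729 CPM. Spike-in controls had values in 3 rows of the 3-month libraries, in 11 to 18 rows of the 6-month regular-activity libraries and in 0 rows of the exercised libraries. The library sets therefore follow age and exercise, and their processing cannot be told apart from these. Mitochondrial transcripts took 8.90% to 26.7% of counts without exercise and 20.8% to 46.9% with it, highest in exercised wild type 1. That library also stood farthest from its replicates, with a chi-square per degree of freedom of 201 to 250.1 against each of them. At 3 months the library labelled heterozygote 3 had Dsp and Exoc2 at wild-type level, and results that rest on it are given with and without it.

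Exoc2, which links the complex to Ral GTPases, was lower in nearly every heterozygote library than in any wild-type library. At 3 months the wild-type libraries, in replicate order, had 21.7, 27.7, 27.3, 23.96 and 21.95 CPM, and the heterozygotes 13.7, 12.5, 23.4, 6.33 and 14.8 CPM. The heterozygotes were low except for the library labelled heterozygote 3, which alone reached into the wild-type range. At 6 months the wild types had 26.7, 27.0, 25.2, 30.3 and 22.96 CPM and the heterozygotes 9.91, 11.8, 12.0, 11.4 and 9.34 CPM. With exercise the wild types had 28.7, 28.7, 24.6, 23.4 and 21.8 CPM and the heterozygotes 9.88, 10.6, 13.1, 10.3 and 16.3 CPM. At both 6-month settings the groups did not overlap. The 15 wild-type libraries spanned 21.7 to 30.3 CPM (median 25.2), and the 14 heterozygote libraries other than the one labelled heterozygote 3 spanned 6.33 to 16.3 CPM (median 11.6). Raw Exoc2 counts were 285 to 643 per wild-type library and 92 to 371 per heterozygote library.

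**Figure D1:**
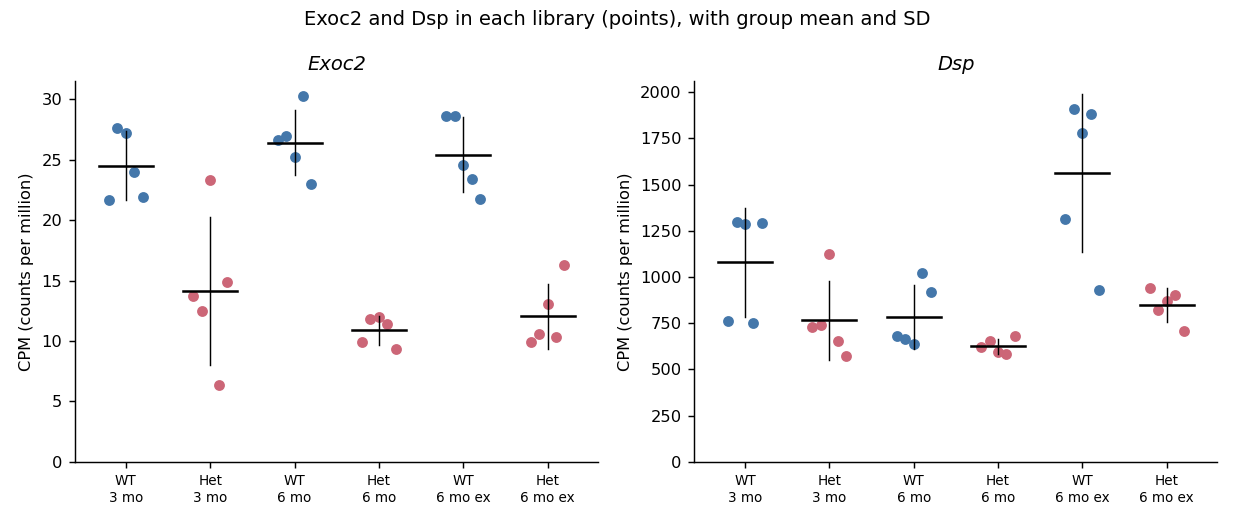
Exoc2 (left) and Dsp (right) in CPM, from 0, in each of the 6 groups; points are libraries, horizontal bars group means and vertical bars SD (n = 5). Exoc2 is below 17 CPM in every heterozygote library except the one labelled heterozygote 3 at 3 months (23.4 CPM), and no wild-type library is below 21.7 CPM.

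Expressed as a ratio, Exoc2 was 1.73-fold lower in heterozygotes at 3 months, 2.42-fold lower at 6 months and 2.11-fold lower with exercise. The log2 differences were -0.79, -1.28 and -1.08, and the first was -1.05 without the library labelled heterozygote 3. The 8 myocyte markers had median log2 differences of -0.02, -0.14 and -0.19 in these settings, with 0 called. Their summed level at 6 months with regular activity was 64537 to 84295 CPM in wild type and 60054 to 77860 CPM in heterozygotes. Bulk libraries of this kind do not separate cell number from RNA per cell. At 3 months Dsp had 729, 741, 1126, 656 and 573 CPM in heterozygotes. The wild types had 759.8, 1299, 1288, 752 and 1294 CPM. The library labelled heterozygote 3 was the only heterozygote within the wild-type range of Dsp. Dsp alone does not set that library apart, since the wild types at 759.8 and 752 CPM lay near the other heterozygotes. The log2 differences of Dsp were -0.50, -0.33 and -0.88 in the same order of settings (edgeR adjusted p = 0.312, 0.657 and 0.0287). Dsp was therefore called for genotype with exercise but not at 3 months or at 6 months with regular activity. Dsp itself rose with exercise, by 0.99 on the log2 scale in wild type (edgeR adjusted p = 0.00106) and by 0.44 in heterozygotes (0.162, not called). The genotype call with exercise was lost in 7 fits that left out a single library and in 3 other alternative fits. Averaged over the settings, a comparison chosen after seeing the data, the difference was -0.57 (edgeR adjusted p = 0.00503). Reads from undeleted exons of a recombined Dsp allele are part of these counts.

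Exoc2 did not change detectably with exercise or age within a genotype. These are not the genotype differences it was selected on, but they use the same libraries. With exercise its log2 difference was -0.06 in wild type (SE 0.187, edgeR adjusted p = 0.92) and 0.14 in heterozygotes (SE 0.192, edgeR adjusted p = 0.735). Between the ages, the difference was 0.11 in wild type (SE 0.187, edgeR adjusted p = 0.874) and -0.38 in heterozygotes (SE 0.191, edgeR adjusted p = 0.27). Leaving out the library labelled heterozygote 3 brought the last value to -0.10 (edgeR adjusted p = 0.835). Changes in the genotype difference of Exoc2 between settings are given as a description with no test. On the log2 scale the change was 0.20 with exercise and -0.49 with age, or -0.20 with age without that library.

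None of the other subunit genes was called with Exoc2 or against it. Of the 8 genes, 0 were called in heterozygotes against wild type at 3 months, at 6 months or with exercise (edgeR quasi-likelihood test, adjusted p under 0.05 over all genes). Over all 15587 tested genes the called share was 0.192% at 3 months, 0.135% at 6 months and 0.404% with exercise, so a count of 0 among 8 is near the background. At an unadjusted p under 0.05, 2 of the 8 genes passed at 3 months, 0 at 6 months and 1 with exercise. Of all 15587 genes, 1722, 1370 and 1525 passed at that level. Both limma-voom and DESeq2 called 0 of 8 in each setting. Over 24 estimates, 15 were higher and 9 lower in heterozygotes, and the 95% intervals together ran from 1.29-fold lower to 1.45-fold higher. No interval reached the smallest of the 3 estimates for Exoc2. The intervals of 3 estimates lay above 0 and those of 0 estimates below it, and these 3 are the estimates with an unadjusted p under 0.05.

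**Figure D2:**
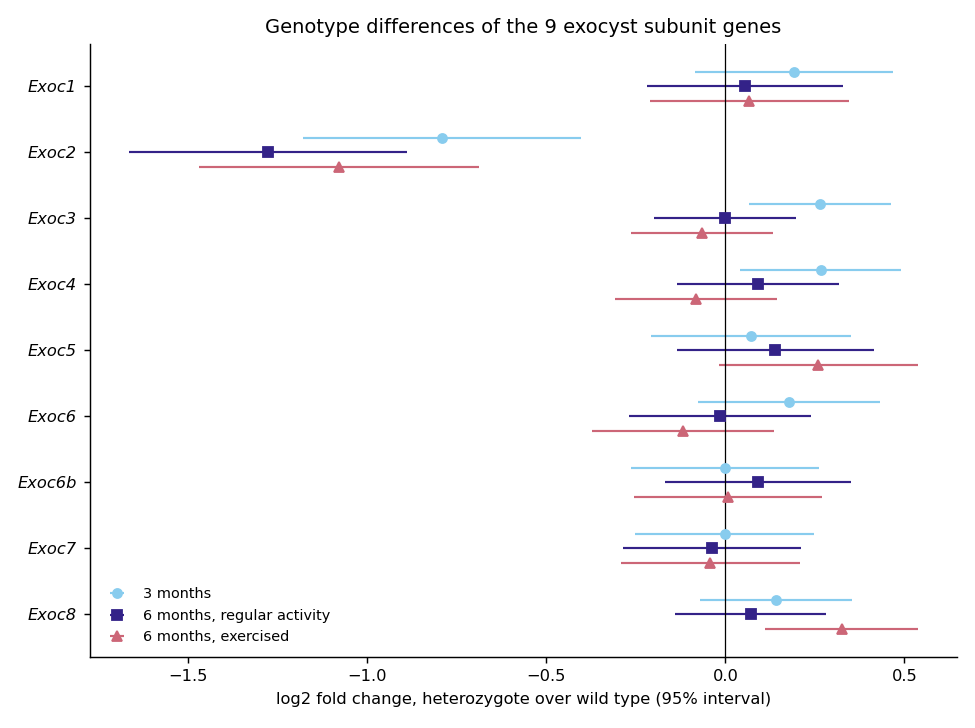
Log2 difference of heterozygote over wild type for each of the 9 subunit genes at 3 months (circles), 6 months (squares) and 6 months with exercise (triangles), with 95% intervals from the edgeR fit. Exoc2 is between -0.79 and -1.28, and the 24 estimates of the other genes have intervals between -0.37 and 0.54.

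Within the subcomplex of Exoc2, Exoc3 and Exoc4 had their highest estimates at 3 months. Exoc3, which contacts membrane fusion proteins, had 82.4, 81.9, 94.6, 84.1 and 87.0 CPM in wild type and 111, 109.9, 96.6, 102.7 and 95.3 CPM in heterozygotes. All 5 heterozygotes were above all 5 wild types, a pattern seen in 1 of the 8 genes and in 1.4% of all genes in either direction. The log2 difference was 0.26 (SE 0.097, edgeR adjusted p = 0.28), or 0.29 (edgeR adjusted p = 0.237) when the library labelled heterozygote 3 was left out. At 6 months and with exercise Exoc3 differed by 0.00 and -0.07. Exoc4, a core scaffold subunit, had 68.3, 74.8, 69.5, 60.8 and 71.0 CPM in wild type and 97.2, 86.6, 63.2, 90.1 and 76.8 CPM in heterozygotes at 3 months. The lowest heterozygote was the library labelled heterozygote 3, and the other 4 were above every wild type. The log2 difference of Exoc4 was 0.27 (SE 0.111, edgeR adjusted p = 0.357), and 0.35 without that library (edgeR adjusted p = 0.159). Exoc1, which binds membrane phosphoinositides, had estimates of 0.19, 0.05 and 0.07 across the 3 settings, with none called.

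In the other subcomplex, Exoc8 and Exoc5 had their highest estimates with exercise. Exoc8, which like Exoc2 binds Ral GTPases, had 27.8, 25.6, 28.6, 25.0 and 27.6 CPM in exercised wild type and 34.1, 34.6, 36.5, 31.6 and 31.8 CPM in exercised heterozygotes. These groups did not overlap, which held for 1 of the 8 genes and for 1.84% of all genes in either direction. The log2 difference was 0.32 (SE 0.105, edgeR adjusted p = 0.205), 0.33 without exercised wild type 1, and did not pass the test. At 3 and 6 months Exoc8 differed by 0.14 and 0.07. At 6 months with regular activity 0 of the 8 genes had groups that did not overlap, against 4.02% of all genes. Exoc5, which binds Exoc6 within the complex, had 16.2, 16.9, 20.5, 18.6 and 17.4 CPM in exercised wild type and 22.8, 20.9, 19.998, 27.0 and 16.8 CPM in exercised heterozygotes. Its estimates were 0.07, 0.14 and 0.26, none called, and exercised heterozygote 5 lay among the wild types. Exoc5 overlaps Ap5m1 on the opposite strand, and its reads are uncertain where the strand setting of the counting is not given.

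The Rab-binding paralogs and Exoc7 showed no direction held beyond their spread. Exoc6 had estimates of 0.18, -0.01 and -0.12, and Exoc6b of 0.00, 0.09 and 0.01. Exoc7, which binds the membrane and actin regulators, had estimates of 0.00, -0.04 and -0.04. By sign alone Exoc1, Exoc5 and Exoc8 were higher in 3 of 3 settings and Exoc7 lower in 3 of 3, and these settings share no libraries. The balance of the paralogs was similar in all groups: Exoc6b took a median of 9.16% to 11.9% of the summed Exoc6 and Exoc6b RPKM (CPM per kilobase of exon).

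**Figure D3:**
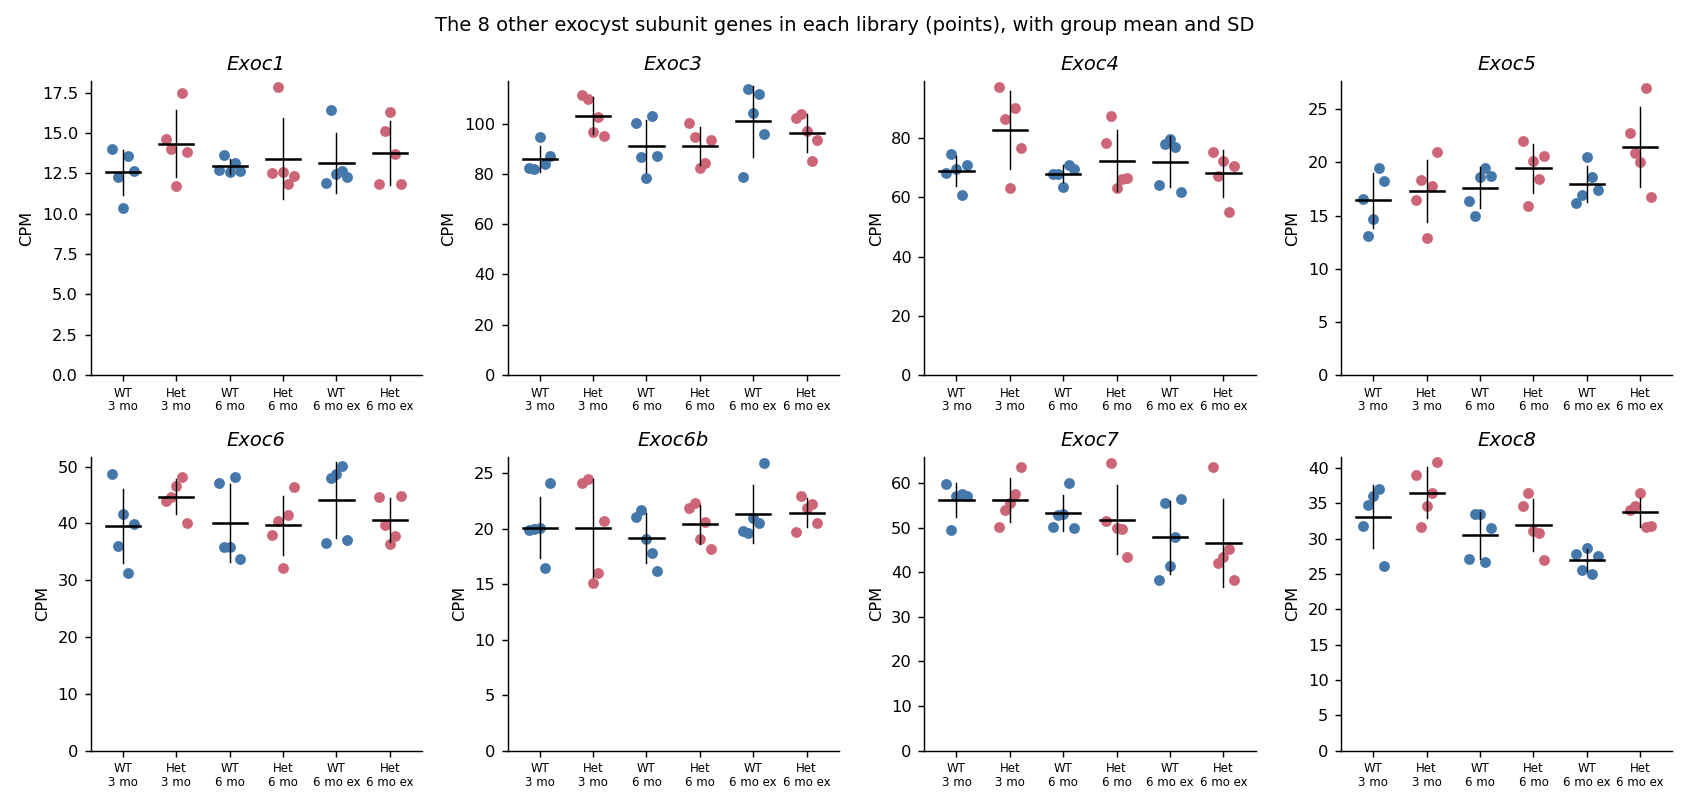
The 8 subunit genes other than Exoc2 in CPM, each axis from 0, in the 6 groups; points are libraries, horizontal bars group means and vertical bars SD (n = 5). Heterozygote and wild-type points overlap in every panel and setting except Exoc3 at 3 months and Exoc8 with exercise, where all 5 heterozygotes are above all 5 wild types.

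Averaging the 3 genotype differences, a comparison chosen after seeing the data, narrowed the intervals without adding a call. Exoc2 stood at -1.05, and 7 of the other 8 genes had estimates above 0. Of these 8, 0 were called, against 2.04% of all genes. An unadjusted p under 0.05 was reached by 2303 of 15587 genes and by 1 of the 8. This was Exoc8 at 0.18 (SE 0.060, edgeR adjusted p = 0.123), followed by Exoc5 at 0.16 (SE 0.079, edgeR adjusted p = 0.35). The intervals of the 8 genes together ran from 1.13-fold lower to 1.25-fold higher.

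Per unit of exon length, Exoc2 is a minor part of the subunit RNA. In the 15 wild-type libraries the median level was 14.5 RPKM for Exoc3, 12.1 for Exoc7, 11.3 for Exoc6, 6.23 for Exoc8, 5.50 for Exoc4 and 3.62 for Exoc2. The lowest levels were those of Exoc6b at 1.32 RPKM, Exoc1 at 1.05 and Exoc5 at 0.968. Neighbours in this order overlapped in their ranges over libraries, except that Exoc6 lay above Exoc8, Exoc4 above Exoc2, and Exoc2 above Exoc6b in every library. The order depends on which exons are counted as length. With the longest principal transcript in place of all annotated exons, a choice made after seeing the data, the level of Exoc4 was 14.4 RPKM, of Exoc2 5.77, of Exoc1 3.75 and of Exoc6b 3.67.

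The share of Exoc2 in the summed RPKM of the 9 genes had medians of 6.19%, 6.63% and 5.87% in wild type at 3 months, 6 months and with exercise. In heterozygotes the medians were 3.06%, 2.73% and 2.86%. The other 8 genes summed to 51.7 to 57.0 RPKM (median 53.8) in wild type and to 57.2 to 62.4 RPKM (median 60.8) in heterozygotes at 3 months. At 3 months, then, every heterozygote had a higher sum than every wild type, and Exoc3 takes the largest part of that sum. The margin was narrow, with 57.2 RPKM in the lowest heterozygote, the library labelled heterozygote 3, and 57.0 RPKM in the highest wild type. The other heterozygotes had 60.3 to 62.4 RPKM. The sum depends on the exon length used, and it was neither tested nor set against other gene sets. At 6 months the medians were 52.8 and 53.1 RPKM and with exercise 56.6 and 53.9 RPKM, in wild type and heterozygotes, with overlapping ranges.

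Across all 30 libraries, no relation of Exoc2 with another subunit passed the test. Deviations of log2 CPM from the group mean were correlated between Exoc2 and each of the 8 genes over 30 libraries, with permutations within groups and adjustment over these 8 relations. Of 8 relations, 0 passed, and Pearson's r lay between -0.52 and 0.05. The lowest was that with Exoc5, at r = -0.52 (permutation p = 0.0209, adjusted 0.167) and a Spearman correlation of -0.48 (permutation p = 0.0168, adjusted 0.134). Of all tested genes, 0.84% had an r with Exoc2 at or below this value. Within the sets of 10 libraries r for Exoc5 was -0.49 at 3 months, -0.37 at 6 months and -0.77 with exercise. The 2 libraries whose Exoc2 deviated most from the group mean were heterozygote 4 and the library labelled heterozygote 3 at 3 months. Without them r for Exoc5 was -0.58 (permutation p adjusted 0.0566). Single libraries moved this result across the threshold: without 3-month heterozygote 4 the adjusted permutation p was 0.0102 (r = -0.68), without heterozygote 5 it was 0.0121 (r = -0.60), and it was 0.55 (r = -0.36) without the library labelled heterozygote 3. For Exoc1, r was -0.35 (Spearman correlation -0.10, permutation p adjusted 0.46) and 0.04 without the same 2 libraries, so that relation rests on them. For Exoc7, r changed sign between the sets of 10 libraries, at -0.17 at 3 months, 0.67 at 6 months and -0.56 with exercise.

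No subunit gene was called with exercise or with age. With exercise 0 of the 8 other genes were called in wild type and 0 in heterozygotes, where 9.69% and 8.82% of all genes were called. With age 0 were called in either genotype, against 0.86% of all genes in wild type and 3.43% in heterozygotes. In each of these 4 comparisons 0 of the 8 had an unadjusted p under 0.05, and limma-voom and DESeq2 called 0. Of all 15587 genes, 3556 in wild type and 3473 in heterozygotes had such a p with exercise, and 1908 and 3052 with age. The log2 estimates of the 8 genes ran from -0.18 to 0.16 with exercise in wild type and from -0.16 to 0.15 in heterozygotes, and the 95% intervals of both together stayed within 1.34-fold in either direction. Exoc8 was lowest in exercised wild type (-0.18, SE 0.104, edgeR adjusted p = 0.328) and Exoc7 in exercised heterozygotes (-0.16, SE 0.123, edgeR adjusted p = 0.508). With age the estimates ran from -0.12 to 0.10 in wild type and from -0.19 to 0.17 in heterozygotes, where Exoc4 was lowest (edgeR adjusted p = 0.339) and Exoc5 highest (edgeR adjusted p = 0.526).

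The genotype differences of the 8 genes were not shown to vary with exercise or age. In the interaction with exercise 0 were called, against 0.0128% of all genes, and in the interaction with age 0, against 0.0% of all genes. At an unadjusted p under 0.05 there were 0 of the 8 in either, against 765 and 1253 of 15587 genes. The largest interaction with exercise was that of Exoc8, at 0.25 (SE 0.148, edgeR adjusted p = 0.999), and the largest with age that of Exoc3, at -0.26 (SE 0.138, edgeR adjusted p = 0.641). Exercised heterozygotes were also set against regular-activity wild type, which shares libraries with the comparisons above. There 0 of the 8 genes were called, against 13.1% of all genes, and Exoc5 had the highest estimate (0.28, SE 0.136, edgeR adjusted p = 0.179). Exoc7 was lowest at -0.19 (edgeR adjusted p = 0.344), and it was called without exercised heterozygote 1 (-0.35, edgeR adjusted p = 0.0393), which had 63.6 CPM against 38.3 to 45.1 CPM in its replicates.

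Exoc2 and Dsp lie on the same chromosome, and a passenger segment around the targeted Dsp allele could not be separated from the genotype. Dsp lies at 38151294 to 38198577, so 7.18 Mb separate the 2 genes, while Exoc3, the only other subunit gene on chromosome 13, lies 35.97 Mb beyond Dsp. Between Exoc2 and Dsp 39 genes were tested, and 0 were called for genotype at 3 months, at 6 months or with exercise. Over all tested genes the called share was 0.192%, 0.135% and 0.404%, so a count of 0 among 39 or 10 genes is near the background. In the average over settings 1 of the 39 was called, Bphl, against 2.04% of all genes. The median log2 difference of the 39 genes was 0.14, 0.03 and -0.01, and 3, 0 and 2 of them had an estimate as low as that of Exoc2. Of the 10 tested genes nearest to Exoc2, 0 were called in any setting: E2f3, Mboat1, Agtr1a, Uqcrfs1 and Dusp22 on one side and Foxc1, Gmds, AL645664.1, Mylk4 and Gm27342 on the other. The nearest on each side, Dusp22 and Foxc1, had differences of -0.17, 0.13 and 0.10 and of -0.16, 0.47 and -0.12. Apart from Exoc2 and Dsp, 255 genes were tested within 20 Mb of the Dsp start. Of these, 1, 0 and 1 were called in the 3 settings and 6 in the average. Whether the Exoc2 alleles differ between genotypes was not tested.

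**Figure D4:**
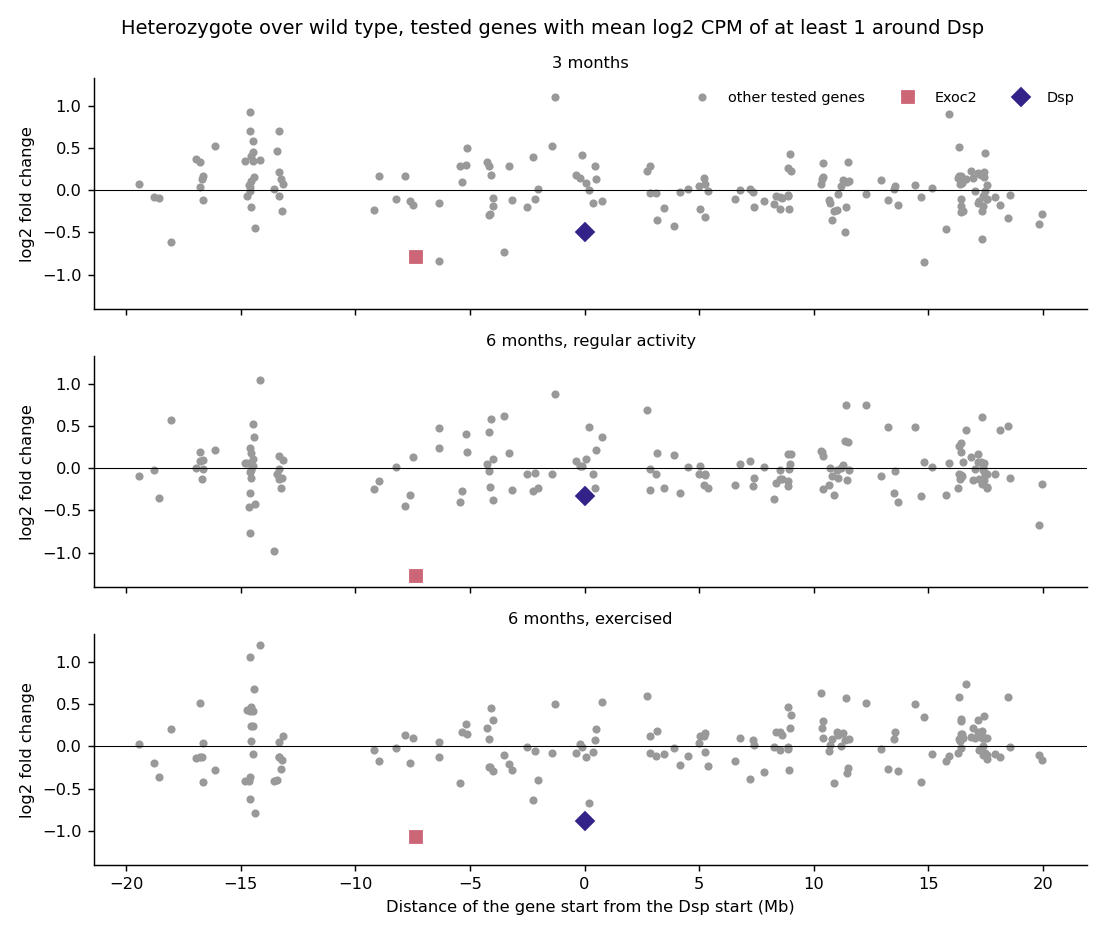
Log2 difference of heterozygote over wild type against the distance of each gene's start from the Dsp start in Mb, for tested genes within 20 Mb whose log2 CPM averaged at least 1, in the 3 settings; grey points are other genes, the square is Exoc2 and the diamond Dsp. Exoc2 is at -0.79, -1.28 and -1.08, and Gmds, which lies between it and Dsp, is at -0.84, 0.24 and 0.06.

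The genes whose pattern was most like that of Exoc2 were not exocyst genes. Likeness was Pearson's r of log2 CPM over 30 libraries after the mean of each age and exercise set was removed, among 11189 genes whose log2 CPM averaged at least 1. Since Exoc2 was picked for its genotype difference, this measure mainly ranks genes by theirs. The highest values were those of Dmd (0.89), which encodes dystrophin, Ctnna3 (0.88), an alpha-catenin of intercalated discs, Dcakd (0.84), Acy1 (0.81), an aminoacylase, and Gm28979 (0.79). Median CPM in wild type and heterozygotes was 298 and 141 for Dmd, 55.5 and 27.2 for Ctnna3, 56.4 and 34.3 for Dcakd, 20.5 and 12.4 for Acy1, and 5.53 and 2.59 for Gm28979. The 5 genes lie on chromosomes X, 10, 11 and 9. Dmd and Ctnna3 are very long genes, of 2257 and 1574 kb, while Dcakd, Acy1 and Gm28979 span 34.3, 5.34 and 5.82 kb. Exoc2 spans 160 kb, which 6.74% of tested genes reach. The subunit genes Exoc4 (725 kb) and Exoc6b (451 kb) had averaged differences of 0.09 and 0.03. The part of gene length in the Exoc2 difference was not tested. Among the subunits r with Exoc2 on this measure ran from -0.56 for Exoc5 to 0.02 for Exoc7.

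Partners that act with the complex were taken as a list of GTPases and their regulators, vesicle proteins, motors, fusion proteins, lipid kinases, cargo and exocyst-like proteins, of which 63 of 65 symbols were in the table and tested. For genotype 0 of 63 were called in each setting, with 8, 6 and 6 at an unadjusted p under 0.05. Of all 15587 genes, 1722, 1370 and 1525 reached that level. The partner medians were 0.00, 0.01 and 0.04 against 0.00, 0.00 and -0.01 over all genes. limma-voom called 0, 2 and 1 and DESeq2 0, 1 and 1. The shares of all genes that these 2 methods called are not given here, so their counts have no background beside them. Averaged over the settings 2 of 63 were called, or 3.17% against 2.04% of all genes. Slc2a4, which encodes the exocyst cargo GLUT4, fell by 0.34 on the log2 scale (SE 0.083, edgeR adjusted p = 0.0249). Its medians in wild type and heterozygotes were 1146 and 959.5 CPM at 3 months, 1189 and 777 CPM at 6 months, and 999 and 922 CPM with exercise, with overlapping ranges with exercise and at 3 months. The call was lost without 6-month heterozygote 5 (edgeR adjusted p = 0.0533) and without exercised wild type 2 (0.0573) or 4 (0.0545). Of the 8 myocyte markers 6, 6 and 5 were lower in heterozygotes in the same settings, with medians of -0.02, -0.14 and -0.19, and their part in the result was not tested. Ehd4, of a family that drives endocytic recycling, rose by 0.27 (SE 0.073, edgeR adjusted p = 0.046), a call lost without any 1 of 18 libraries (edgeR adjusted p up to 0.0922).

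With exercise, Rab14, a Rab GTPase of recycling vesicles, rose and the Ral regulator gene Rgl2 fell in both genotypes. Of 19 genes for Rab and Arf GTPases and their links, 2 were called higher in wild type and 3 in heterozygotes, with median log2 differences of 0.02 and 0.24. In wild type 5 of 63 partners were called, or 7.94% against 9.69% of all genes, and in heterozygotes 9 of 63, or 14.3% against 8.82%. Rab14 had 48.0, 48.4, 48.0, 54.4 and 52.4 CPM in wild type with regular activity and 69.3, 77.9, 68.6, 78.3 and 70.0 CPM with exercise. In heterozygotes it had 54.4, 49.3, 46.0, 44.2 and 46.4 CPM and then 69.7, 79.6, 80.7, 61.5 and 75.4 CPM. The groups did not overlap in either genotype, but the share of all genes with such groups under exercise was not counted. The rise was 1.45-fold in wild type (log2 0.54, SE 0.104, edgeR adjusted p = 0.000933) and 1.53-fold in heterozygotes (log2 0.61, SE 0.104, edgeR adjusted p = 0.000255). Rgl2, whose product activates Ral, fell from a range of 38.03 to 48.9 CPM to one of 24.1 to 34.1 CPM in wild type (log2 -0.63, SE 0.120, edgeR adjusted p = 0.000704). In heterozygotes it fell from 41.2 to 51.7 CPM to 28.3 to 33.4 CPM (log2 -0.59, SE 0.119, edgeR adjusted p = 0.0015). Rab14 and Rgl2 were called in both genotypes in every fit that left out 1 library.

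Rab10, a Rab of GLUT4 vesicles, rose by 0.51 in heterozygotes (SE 0.099, edgeR adjusted p = 0.000964) and by 0.34 in wild type (SE 0.099, edgeR adjusted p = 0.0213). The wild-type call was lost without 6-month wild type 3 (edgeR adjusted p = 0.0577) and without exercised wild type 1 (0.0581). Vamp2, a vesicle fusion protein, rose by 0.66 in heterozygotes (SE 0.147, edgeR adjusted p = 0.00385), from 13.03 to 16.3 CPM to 21.3 to 26.6 CPM. Further calls in heterozygotes were Rab11b (0.45, edgeR adjusted p = 0.0157), Rac1 (0.34, 0.0305) and Tnfaip2 (-0.65, 0.0203), and in wild type Rac1 (0.38, 0.0153) and Vamp3 (0.33, 0.0277). Single libraries decided these calls. Rab11b was lost without exercised heterozygote 2 or 5 or 6-month heterozygote 4 (edgeR adjusted p up to 0.0947), and Tnfaip2 without exercised heterozygote 4 or 6-month heterozygote 2 (up to 0.0865). Rac1 was lost in wild type without exercised wild type 1 or 6-month wild type 5 (edgeR adjusted p up to 0.0957), and in heterozygotes without any 1 of 8 libraries (up to 0.183). Vamp3 was lost without exercised wild type 1 or 3 or 6-month wild type 2, 3 or 5 (edgeR adjusted p up to 0.103). Ralgds (-0.50, edgeR adjusted p = 0.0305) and the exocyst-like gene Exoc3l4 (-1.02, edgeR adjusted p = 0.0459) were also called in heterozygotes and are named after their values were seen. Beside the falls of Tnfaip2 and Exoc3l4, 8 of 8 endothelial and 8 of 8 macrophage markers were lower in exercised heterozygotes, with medians of -0.49 and -0.50, and their part was not tested. For the interaction of genotype with exercise 0 of 63 partners were called by edgeR, so the exercise effects were not shown to differ between genotypes. At an unadjusted p under 0.05 there were 4 of 63, against 765 of 15587 genes.

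**Figure D5:**
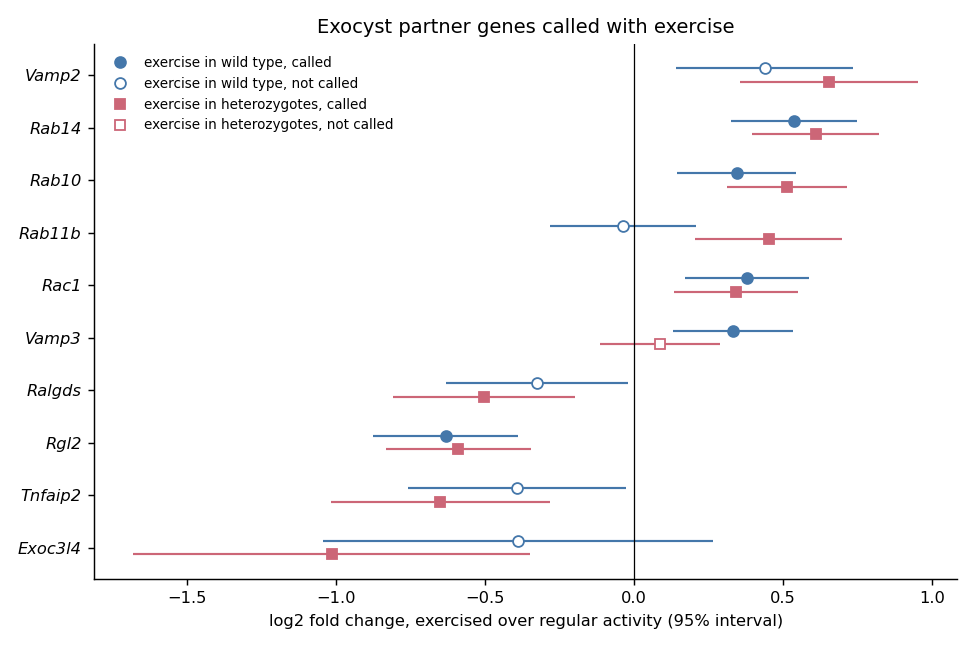
Log2 difference of exercised over regular-activity libraries for the 10 partner genes called in either genotype, with 95% intervals; circles are wild type, squares heterozygotes, and filled symbols were called. Rab14, Rab10, Rac1 and Rgl2 are filled in both genotypes, Vamp3 in wild type alone, and the others in heterozygotes alone; no difference between genotypes was called.

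With age 1 of 63 partners was called in wild type and 3 in heterozygotes, or 1.59% against 0.86% of all genes and 4.76% against 3.43%. Cdc42, which acts in cell polarity, rose by 0.43 in wild type (SE 0.093, edgeR adjusted p = 0.0172), from 82.1 to 91.7 CPM to 108.8 to 122.8 CPM, and the call was lost without 6-month wild type 5 (edgeR adjusted p = 0.0568). In heterozygotes it rose by 0.34 (edgeR adjusted p = 0.0346), a call lost without 3-month heterozygotes 4 or 5, the library labelled heterozygote 3, or 6-month heterozygotes 1 or 4 (edgeR adjusted p up to 0.0991). Ehd2 and Stx2 rose by 1.06 and 1.02 in heterozygotes (edgeR adjusted p = 0.0476 and 0.0494), and each call was lost without any 1 of 9 libraries (edgeR adjusted p up to 0.148). A fit with 1 surrogate variable gave 0.31 for Ehd2, 0.49 for Stx2 and 0.29 for Cdc42 in heterozygotes. None was called there (edgeR adjusted p = 0.752, 0.747 and 0.418). For age in heterozygotes 8 of 8 endothelial markers (median 1.00) and 8 of 8 fibroblast markers (median 1.41) were higher. Their part in the rises of Ehd2 and Stx2 was not tested. In the interaction with age 0 of 63 were called by edgeR, with 3 at an unadjusted p under 0.05, against 1253 of 15587 genes.

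The other tethering complexes, COG, GARP, EARP, HOPS, CORVET, TRAPP and NRZ, were counted beside the exocyst with 38 genes. For genotype 0 of 38 were called in each setting by edgeR, with medians of 0.01, -0.09 and 0.00. At an unadjusted p under 0.05 there were 5, 4 and 1 of 38, against 1722, 1370 and 1525 of 15587 genes. With exercise 4 of 38 were called in wild type and 4 in heterozygotes, or 10.5% in each against 9.69% and 8.82% of all genes.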

How the data were processed

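The 30 libraries of cardiac myocyte RNA fall into 6 groups of 5 by the labels. Total RNA (miRNAeasy mini kit) went through ribosomal depletion and a strand-specific, paired-end TruSeq v2 preparation, per the labels' protocols. The tools were Trim Galore, HISAT2 and featureCounts on mm10, per the submitters' processing notes. Their versions, the annotation and the strand setting are not given in the sources used here. The authors deposited raw counts of all libraries as 1 table.

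Of its 52573 rows, 23 were spike-in controls and stayed out of library sizes and tests. Symbols that had become dates were restored for 26 genes. Positions and exon lengths come from GENCODE release M21 on GRCm38, which held 52403 of the gene IDs, and start windows from RefSeq on GRCm38.p6, which matched 9 of 9 members.

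Genes passing filterByExpr (15587) were fitted over all 30 libraries with TMM factors and the robust quasi-likelihood F test of edgeR 4.0.16 under R 4.3.3 (limma 3.58.1), with Benjamini-Hochberg adjustment over all of them. A gene is called at an adjusted p under 0.05. The SE equals the size of the log2 value over the root of F, and intervals are 95% intervals from the same fit. CPM uses TMM-scaled library sizes, log2 CPM adds a prior count of 2, and RPKM divides CPM by annotated exon length. Correlations used 100000 two-sided permutations within groups. The test code was run on simulated counts with the same spread for every gene, which does not measure its error rates in these data. The depth of each library is its total count, and the intervals give the precision of each difference, from the spread between libraries.

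The members, the lists and the rule for named genes were chosen with earlier results of these data known. The rule named all members, Dsp, up to 6 called partners per comparison with the smallest p, the 5 genes most like Exoc2 and the 5 nearest tested genes on each side of it. Alternatives were DESeq2 size factors, leaving out the low-count filter, replicate number as a block, own groups only, leaving out mitochondrial genes with the 10 most abundant others, limma-voom, the DESeq2 Wald test (DESeq2 1.42.0), 1 surrogate variable (sva 3.50.0), removal of a trend on gene length, a threshold of 0.01 and each library left out. The average over genotype settings and the principal transcript length were added after seeing the data. Counts of replicate pairs differed by more than sampling noise, with a chi-square per degree of freedom of at least 17.4, so none was counted as a repeat of another.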

Additional observations from a re-analysis of the deposited data

Results flagged for a closer look

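In 54 groups of 5 libraries (9 genes in 6 groups) the highest and lowest library were compared with their neighbours on the log2 CPM scale, and 4 libraries stood apart by Dixon's 95% limit (0.71). Chance flags about 1 in 20 groups. Exoc1 had 17.8 CPM in 6-month heterozygote 2 against 11.8 to 12.6 CPM in the other 4 libraries, and 16.4 CPM in exercised wild type 2 against 11.9 to 12.6 CPM. Exoc6b had 26.0 CPM in exercised wild type 5 against 19.6 to 20.96 CPM. Exoc7 had 49.5 CPM in 3-month wild type 2 against 57.1 to 59.8 CPM. For Exoc2 0 of 6 groups were flagged, with 3-month heterozygotes from 6.33 to 23.4 CPM.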

How the results depend on the processing

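Counts of called subunits other than Exoc2 stayed at 0 in 259 of 260 alternative fits over 11 comparisons; the exception was 1 call (Exoc7) in exercised heterozygotes against regular-activity wild type, where leaving out 1 library gave 0 to 1. Partner calls near the threshold moved more, and the share of all genes called under each alternative is not given here. At 6 months the genotype count of 0 became 2 with own groups only, 2 with limma-voom, 1 with DESeq2 and 0 to 1 with 1 library left out. With exercise the genotype count of 0 became 1 with limma-voom, 1 with DESeq2 and 1 with a surrogate variable. For exercise in wild type the count of 5 became 8 with DESeq2 size factors, 2 without the low-count filter, 11 with own groups only, 14 with limma-voom, 10 with DESeq2, 10 with a surrogate variable, 2 at a threshold of 0.01 and 3 to 8 with 1 library left out. For exercise in heterozygotes the count of 9 became 5 without the filter, 18 with limma-voom, 4 at 0.01 and 5 to 8 with 1 library left out. For age in wild type the count of 1 became 0 at 0.01 and 0 to 1 with 1 library left out. For age in heterozygotes the count of 3 became 1 without the filter, 1 with the replicate block, 8 with limma-voom, 0 with a surrogate variable, 0 at 0.01 and 0 to 5 with 1 library left out. Relations of Exoc2 with other subunits passed in 0 to 1 of 8 with 1 library left out. The cause of these moves was not tested. The replicate block changed no count over the other subunits, and replicate numbers did not pair the libraries: 0 to 2 of 5 same-numbered pairs had correlated deviations above 0.1 in each of the group pairs. Of the log2 differences of single genes under alternatives, 2905 stayed on their side of the threshold in their direction where called, 117 lost a call and 2 gained one. Levels per length moved for 7 of 9 genes with the principal transcript length. With 5 libraries per group, the 95% intervals give the differences that the data do not exclude.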
